A study of Homo sapiens with 6 samples.

Results

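The genes described here are 9 genes around p53, its inhibitor MDM2 and growth arrest, namely MDM2, MDM4, PPM1D, TP53INP1, SESN1, ZMAT3, BTG2, GADD45A and GADD45B. They were chosen by symbol from a list proposed with the values of this same contrast known, so their differences between the groups are a description and carry no test. All 9 were found among the 58735 entries of the count table, and all 9 passed the filter on low counts with 15935 genes in all. RD is an established human cell line of embryonal rhabdomyosarcoma, a tumor of cells with skeletal muscle features. The controls were RD cells transduced with lentiviral particles carrying a scrambled shRNA (n = 3), and the knockdown cells were RD cells transduced with particles carrying an shRNA to TAK1 (n = 3). The comparison addresses how the transcriptome of these cells differs after knockdown of TAK1, a kinase of inflammatory and stress signaling upstream of NF-kB, JNK and p38. A single TAK1 shRNA sequence in a single cell line limits the model, since a second sequence was not part of these samples.

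p53 is a transcription factor that is stabilized by DNA damage and other stress and induces genes for cell cycle arrest, DNA repair, metabolic adjustment and cell death. Several of its target genes encode inhibitors that act back on it, among them the ubiquitin ligase MDM2 and the phosphatase encoded by PPM1D. Many genes called p53 targets are also under the control of other transcription factors, including FOXO, NF-kB and AP-1 proteins.

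MAP3K7, which encodes TAK1, was at 77.9, 76.5 and 77.6 CPM (counts per 1000000, scaled for library size and composition) in the 3 scrambled shRNA samples and at 30.5, 33.6 and 29.9 CPM in the 3 TAK1 shRNA samples. All 3 knockdown samples lay below all 3 controls, with a log2 fold change of -1.30 ± 0.062 (standard error), or 40.6% of the control level. The libraries held between 28839898 and 34469323 counts, and GADD45B, the gene with the fewest counts of the 9, held between 106 and 172 in each sample. Muscle markers summed to between 1877 and 2018 per 1000000 total counts in each sample, led by CHRNA1 in each. Of the 7, MYF5 had 0 counts throughout. Within this sum CHRNA1 was lower in the TAK1 shRNA samples, with a log2 fold change of -0.40. MYOD1 at 0.37, MYOG at 0.27 and CHRNG at 0.47 were higher, so the even sum does not mean that each marker was unchanged. Markers of leukocytes, endothelium, epithelium, liver and glia summed to at most 0.609 per 1000000 total counts in any sample, and CDH1 was at 0 in all 6. In a bulk sample fewer cells that express a gene and less RNA of that gene per cell cannot be told apart. Nothing in the labels says that the replicates are separate cultures, so the standard errors and p-values measure the spread between these samples. A gene was called where the adjusted p of the edgeR fit over all genes was under 0.05 and the absolute log2 fold change was at least 0.25.

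With this rule 5 of the 9 genes were called, beside 23.1% of all genes tested. In the TAK1 shRNA samples 4 were called higher, beside 11.8% of all genes, and these were TP53INP1, BTG2, SESN1 and MDM2. Only 1 of the 9, GADD45A, was called lower, beside 11.3% of all genes. MDM4, PPM1D, ZMAT3 and GADD45B were not called. The median log2 fold change of the 9 genes was 0.24 and that of all genes tested was 0.018. The 2 groups did not overlap for 5 of the 9 genes higher after knockdown, MDM4 by less than the printed digits, and for 2 lower. Of all genes tested, 21.6% were higher and 22.2% lower without overlap of the groups.

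**Figure D1:**
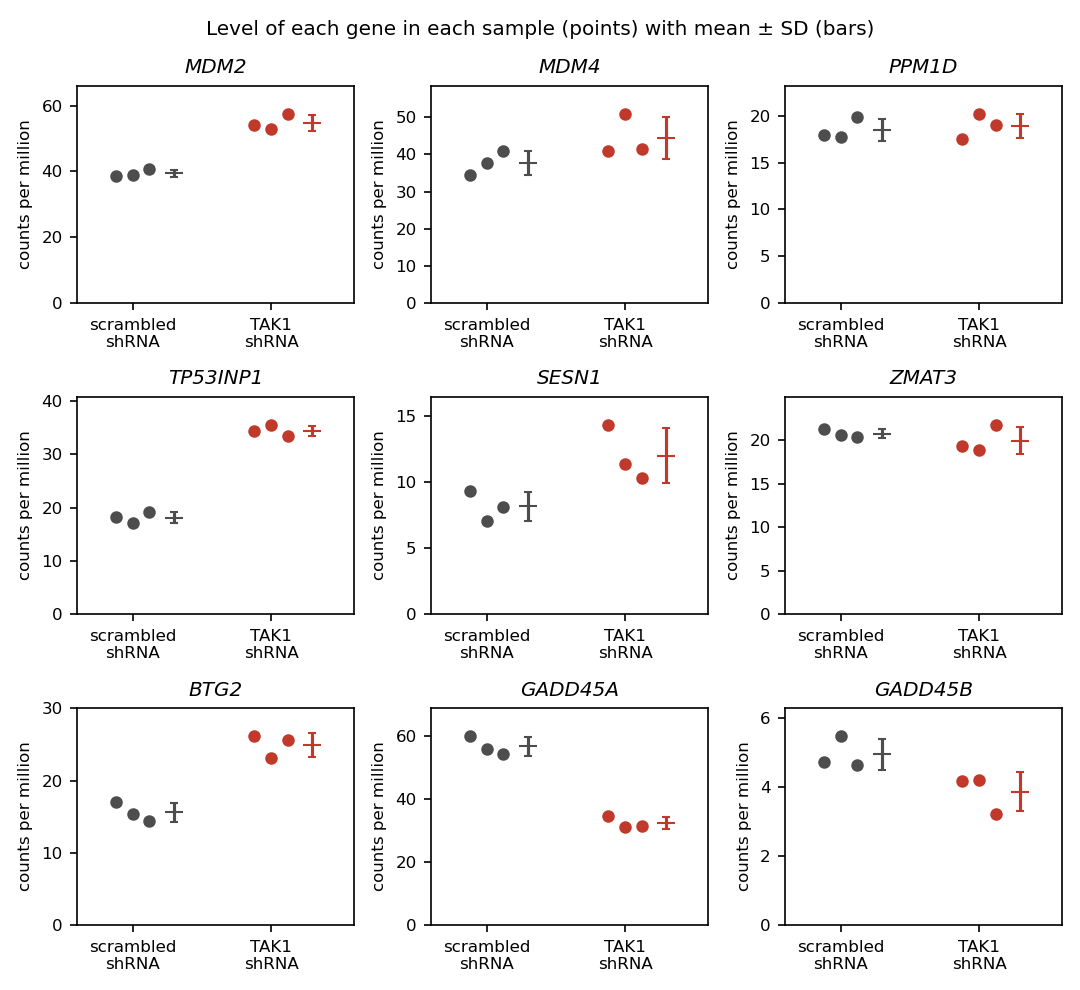
Level of each of the 9 genes in CPM (vertical axes, from 0), with 1 point per sample and the mean ± SD beside each group of 3. MDM2, TP53INP1, SESN1 and BTG2 sit higher in all 3 TAK1 shRNA samples than in any control. GADD45A sits lower, as does GADD45B by a narrow margin. For MDM4 the highest control and the lowest knockdown sample are level at 41.0 CPM.

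MDM2, MDM4 and PPM1D encode inhibitors of p53. MDM2, the ubiquitin ligase that marks p53 for degradation and is itself induced by p53, was at 38.5, 39.1 and 40.6 CPM in the scrambled shRNA samples and at 54.1, 52.9 and 57.4 CPM in the TAK1 shRNA samples. The lowest knockdown sample lay well above the highest control, and the 3 controls were close to each other. The group means were 39.4 ± 1.07 and 54.8 ± 2.34 CPM (SD, n = 3), and the log2 fold change was 0.47 ± 0.061 (standard error). MDM2 was therefore 139% of its control level and met the call rule, although it falls below a stricter fold threshold of 0.5.

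MDM4, a relative of MDM2 that binds p53 and blocks its transcriptional activity, was at 34.6, 37.6 and 41.0 CPM in the controls and at 41.0, 50.8 and 41.4 CPM in the knockdown samples. The highest control and the lowest knockdown sample were level at 41.0 CPM, and TAK1 shRNA replicate 2 stood apart above the rest. The log2 fold change of 0.24 ± 0.079 lay just under the threshold of 0.25, so MDM4 was the gene nearest to a call among those not called. It was called when scrambled shRNA replicate 3 was left out, at 0.30, and likewise without TAK1 shRNA replicate 1, at 0.29, or replicate 3, at 0.27. Without TAK1 shRNA replicate 2 the log2 fold change was 0.13.

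PPM1D, which encodes the phosphatase WIP1 that reverses phosphorylation of p53 and of the kinases upstream of it, was at 17.9, 17.7 and 19.8 CPM in the controls and at 17.5, 20.2 and 19.0 CPM after knockdown. The groups overlapped throughout, with the lowest of the 6 values in a knockdown sample. The log2 fold change was 0.034 ± 0.085, smaller than its standard error, and the sign was negative, at -0.017, in the lowest of the fits that left out a sample. MDM2 thus differed from control by more than the spread of its replicates while PPM1D, another p53-induced inhibitor of p53, did not. The difference between these genes in their fold changes was not tested.

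TP53INP1, SESN1 and ZMAT3 are p53 targets that act in stress adaptation. TP53INP1 encodes a protein of the autophagy machinery that also promotes p53 activity in the nucleus, and it was at 18.2, 17.1 and 19.1 CPM in the scrambled shRNA samples against 34.3, 35.4 and 33.5 CPM in the TAK1 shRNA samples. It had the highest fold change of the 9 genes, and the gap between the groups was many times the spread within either. The means were 18.1 ± 0.998 and 34.4 ± 0.988 CPM (SD, n = 3), and the log2 fold change was 0.93 ± 0.074, or 190% of the control level.

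SESN1 encodes sestrin 1, which restrains the growth kinase mTORC1 and limits oxidative stress. It was at 9.28, 7.08 and 8.08 CPM in the controls and at 14.3, 11.4 and 10.3 CPM in the knockdown samples. The groups did not overlap, yet the knockdown samples were spread more widely than the controls, with replicate 1 highest in both groups. The log2 fold change of 0.56 ± 0.13 had the largest standard error of the 5 genes called, and it ranged from 0.41 to 0.66 when each sample was left out in turn. The raw counts behind it were 264, 223 and 249 in the controls and 418, 402 and 339 after knockdown.

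ZMAT3 encodes a zinc finger RNA-binding protein that takes part in the control of splicing and mRNA stability downstream of p53. Its level was 21.3, 20.6 and 20.4 CPM in the controls and 19.3, 18.9 and 21.7 CPM in the knockdown samples. The highest of the 6 values was in a knockdown sample, so the groups overlapped. Its log2 fold change was -0.056 ± 0.081, with a range from -0.13 to -0.017 when each sample was left out in turn, and it was not called.

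BTG2 and the GADD45 genes restrain cell division. BTG2, an antiproliferative protein that recruits the CCR4-NOT deadenylase to mRNAs, was at 17.1, 15.4 and 14.4 CPM in the scrambled shRNA samples and at 26.1, 23.1 and 25.6 CPM in the TAK1 shRNA samples. All 3 knockdown samples lay above the highest control, with a clear gap between the groups. The means were 15.6 ± 1.36 and 24.9 ± 1.63 CPM (SD, n = 3), the log2 fold change was 0.68 ± 0.085, and the level was 160% of control.

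GADD45A, a stress-induced protein that binds PCNA and CDK1 and activates the kinase MAP3K4 upstream of p38 and JNK, went the other way. It was at 60.0, 56.1 and 54.3 CPM in the controls and at 34.7, 31.3 and 31.6 CPM in the knockdown samples. The highest knockdown sample was far below the lowest control. The means were 56.8 ± 2.91 and 32.6 ± 1.91 CPM (SD, n = 3), and the log2 fold change was -0.80 ± 0.066, or 57.3% of the control level.

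GADD45B, its relative that NF-kB and TGF-beta signaling are known to induce, was at 4.71, 5.46 and 4.64 CPM in the controls and at 4.17, 4.19 and 3.21 CPM after knockdown. Each knockdown sample was below each control, although by a narrow margin. The log2 fold change was -0.36 ± 0.16, past the fold threshold, but the adjusted p was not under 0.05 and GADD45B was not called. Its counts were the lowest of the 9 genes, at 134, 172 and 143 in the controls and 122, 148 and 106 in the knockdown samples, and its standard error was the largest.

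**Figure D2:**
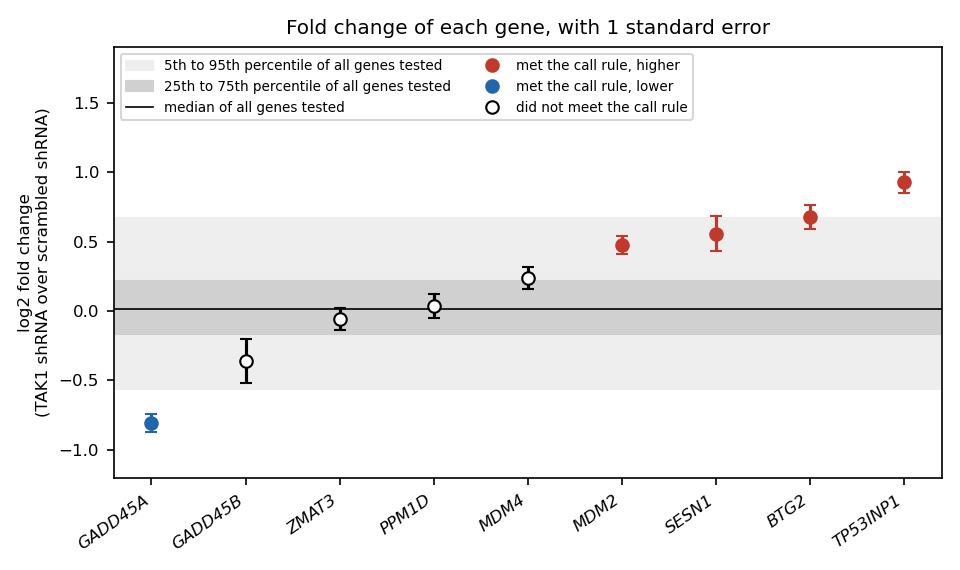
Log2 fold change of each of the 9 genes (TAK1 shRNA over scrambled shRNA, points with 1 standard error), over bands that hold the 25th to 75th and the 5th to 95th percentile of all 15935 genes tested. TP53INP1 and BTG2 lie above the upper band edge of 0.67 and GADD45A lies below the lower edge of -0.56, while PPM1D and ZMAT3 lie within the inner band from -0.16 to 0.22.

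The exons of 3 of these genes overlap other annotated genes in GRCh38, and the sources used here do not say whether reads were counted by strand. MDM2, on the plus strand at chr12:68808177-68845544, overlaps the carboxypeptidase M gene on the other strand. Carboxypeptidase M held at most 15 counts in any sample while MDM2 held at least 1096. MDM2 also overlaps an unnamed gene on its own strand and another on the minus strand, neither of which was analysed here. TP53INP1, on the minus strand of chromosome 8, overlaps NDUFAF6 on the other strand, which held between 342 and 482 counts and had a log2 fold change of -0.019 ± 0.099. TP53INP1 itself had 518, 538 and 588 counts in the controls and 1004, 1252 and 1105 in the knockdown samples. SESN1, on the minus strand at chr6:108984309-109094846, overlaps an unnamed gene on the plus strand that was not analysed here. Without strand, reads of partners on the other strand cannot be told apart where their exons coincide. Counting by strand would not separate the partner of MDM2 on its own strand. GADD45A (chr1:67685201-67688334, plus strand), GADD45B (chr19:2476122-2478259, plus) and BTG2 (chr1:203305491-203309602, plus) overlap the exons of no other gene in GENCODE 44, nor do MDM4 (chr1:204516379-204558120, plus), PPM1D (chr17:60600193-60666280, plus) and ZMAT3 (chr3:178960121-179072215, minus).

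Levels can be compared between genes only per length, here as CPM per kb of all annotated exons of a gene joined. On this scale GADD45A was the most abundant of the 9 in the controls, at 29.5 ± 1.52 CPM per kb (SD, n = 3). BTG2 at 5.66 ± 0.493 and MDM2 at 4.74 ± 0.130 CPM per kb followed. MDM4 at 3.43 ± 0.292 and TP53INP1 at 3.21 ± 0.177 did not differ beyond their spread. GADD45B came next at 2.31 ± 0.213, and PPM1D at 1.97 ± 0.124 and ZMAT3 at 1.84 ± 0.0432 CPM per kb overlapped. SESN1 was the least abundant at 1.12 ± 0.152 CPM per kb. In the TAK1 shRNA samples GADD45A was still first at 16.9 ± 0.989 and BTG2 second at 9.04 ± 0.593 CPM per kb. TP53INP1, at 6.10 ± 0.175 CPM per kb, was above MDM4, at 4.03 ± 0.502, and next to MDM2, at 6.59 ± 0.282. PPM1D, GADD45B, ZMAT3 and SESN1 lay between 1.65 and 2.01 CPM per kb, with overlapping samples. The place of the lower genes depends on the length used. With the length of the representative (MANE Select) transcript, PPM1D was at 3.88 ± 0.244 CPM per kb in the controls and MDM4 at 3.76 ± 0.32. On that scale these genes did not differ beyond their spread.

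Each of these genes belongs to a protein family, and relatives were described beside them. In the GADD45 family, GADD45A was at 31.2, 29.1 and 28.2 CPM per kb in the controls and GADD45G, the third member, at 15.4, 12.8 and 14.0. In the knockdown samples GADD45A was at 18.1, 16.3 and 16.4 CPM per kb and GADD45G at 22.4, 20.4 and 20.7. GADD45A was thus above GADD45G in every control and below it in every knockdown sample, and the same order held with MANE Select lengths, at 42.0 over 17.5 CPM per kb in the controls and 24.1 under 26.2 after knockdown. The share of GADD45A in the summed family level was 64.3% ± 1.02 in the controls and 42.4% ± 0.267 after knockdown (SD, n = 3), and GADD45B held 5.05% ± 0.626 and 4.53% ± 0.596. The 3 genes together came to 48.8, 44.5 and 44.4 CPM per kb in the controls and 42.4, 38.6 and 38.6 in the knockdown samples, so the summed level differed by less between the groups than that of GADD45A alone. GADD45G was called higher, with a log2 fold change of 0.59 ± 0.081 (edgeR adjusted p = 3.3e-06), and all 3 knockdown samples lay above all 3 controls.

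Among the sestrins, SESN2 was more abundant than SESN1 in every sample, with 61.3% ± 2.04 of the summed sestrin level in the controls and 56.2% ± 1.98 after knockdown (SD, n = 3). The share of SESN1 was 19.0% ± 1.47 in the controls and 27.2% ± 2.15 after knockdown. The summed sestrin level of 5.87 ± 0.349 CPM per kb in the controls and 6.03 ± 0.578 after knockdown overlapped between the groups. SESN2, with a log2 fold change of -0.085 ± 0.10, and SESN3, with -0.22 ± 0.11, were not called (edgeR adjusted p = 0.58 and 0.13). TP53INP2, the paralog of TP53INP1, was called higher at 0.40 ± 0.053 (edgeR adjusted p = 1.8e-06), and at 14.8 ± 0.375 and 19.5 ± 0.270 CPM per kb in controls and knockdown samples it was above TP53INP1 in every sample.

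BTG2 contributed 10.1% ± 1.10 of the summed level of BTG1, BTG2, BTG3, TOB1 and TOB2 in the controls and 13.9% ± 0.950 after knockdown (SD, n = 3). TOB2 was called higher at 0.37 ± 0.053 (edgeR adjusted p = 4.5e-06) while BTG1, at -0.12 ± 0.056, and BTG3, at 0.022 ± 0.10, were not called. Among other phosphatases of the PPM1D family, PPM1L at 1.04 ± 0.17 and PPM1H at 0.52 ± 0.12 were called higher (edgeR adjusted p = 3.3e-05 and 0.0013), and PPM1B at -0.39 ± 0.093 was called lower (edgeR adjusted p = 0.0017). Over the 23 relatives in all, 20 were tested, 5 were called higher (25%, beside 11.8% of all genes) and 1 lower (5.0%, beside 11.3%), and their median log2 fold change was 0.011 beside 0.018 for all genes. ZMAT2 and ZMAT5, relatives of ZMAT3, were not called, and ZMAT1, ZMAT4 and BTG4 had too few counts to test.

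**Figure D3:**
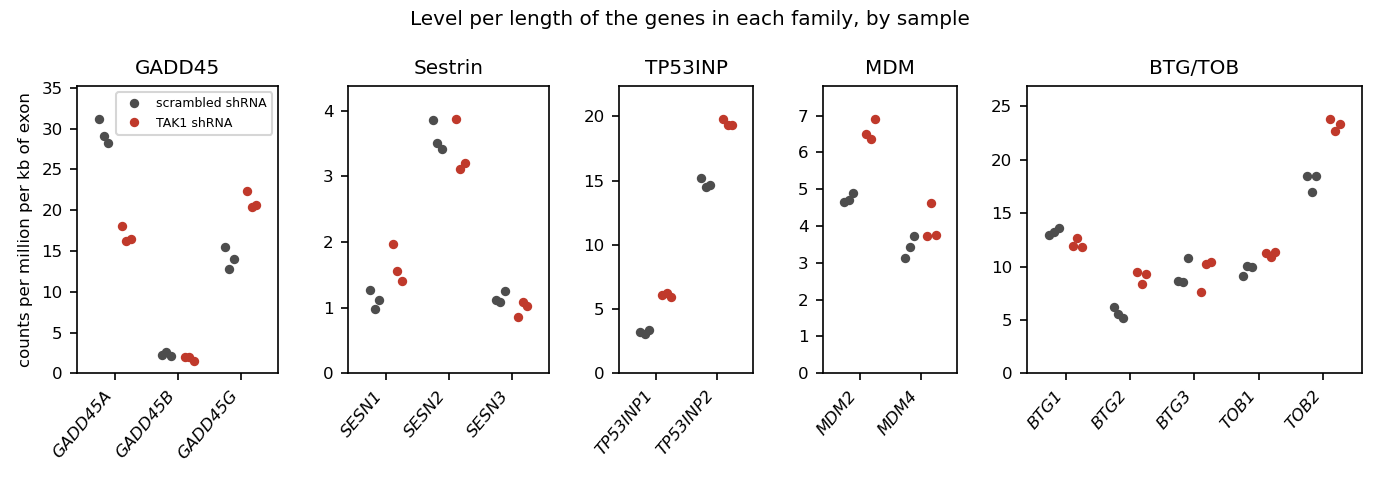
Level per length in CPM per kb of exon (vertical axes, each from 0) for the GADD45, sestrin, TP53INP, MDM and BTG/TOB families, with 1 point per sample and the 2 groups in different colors. GADD45A and GADD45G change places between the groups, SESN2 lies above SESN1 in each sample, and TP53INP1 and BTG2 are higher after knockdown without becoming the most abundant of their families.

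The region upstream of the start of transcription was compared in the RefSeq promoter table (GRCh38.p14), which held 7 of the 9 genes, all but GADD45A and TP53INP1. The window runs from 250 bases before the start to 50 after it. Both strands were searched for 4 motifs, the p53 half-site, the NF-kB consensus, the AP-1 motif TGANTCA and the EGR motif GCGNGGGCG. EGR motifs were in 3 of the 7 windows, against 9.43% of 35116 promoters, and these windows of BTG2, PPM1D and GADD45B are shown because they hold all 4 EGR matches found in these genes. The GC content of these windows was 73.3%, 71.0% and 61.7%, beside a median of 58.7% over all promoters, and since the EGR motif is made almost wholly of G and C the share over all promoters is not matched to them. The NF-kB consensus was in 2 of 7, GADD45B and ZMAT3, against 11.3% of promoters. The p53 half-site and AP-1 motifs were in 0 of 7, against 6.63% and 7.71% of promoters, which says only that these letters are not in these windows, and the p53-responsive promoter of MDM2 is known to lie inside its first intron. The 250 bases before the RefSeq start are printed 5′ to 3′ on the strand of the gene, with the motif matches in capitals, for BTG2 at chr1:203305269-203305518, PPM1D at chr17:60599943-60600192 and GADD45B at chr19:2475877-2476126, all on the plus strand. The start is that of RefSeq, and the last of these bases in BTG2 and GADD45B lie inside the genes as GENCODE 44 places them.
BTG2: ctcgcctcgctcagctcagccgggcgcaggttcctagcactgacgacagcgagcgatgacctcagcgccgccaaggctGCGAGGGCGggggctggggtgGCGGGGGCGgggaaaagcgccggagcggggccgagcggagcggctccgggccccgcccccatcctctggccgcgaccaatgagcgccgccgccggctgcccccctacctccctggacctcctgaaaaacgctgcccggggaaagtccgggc
PPM1D: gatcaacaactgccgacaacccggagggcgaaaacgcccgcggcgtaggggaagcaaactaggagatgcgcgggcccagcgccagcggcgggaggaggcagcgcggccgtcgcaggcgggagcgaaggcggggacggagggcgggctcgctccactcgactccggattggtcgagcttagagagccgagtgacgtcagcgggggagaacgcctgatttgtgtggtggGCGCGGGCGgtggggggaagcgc
GADD45B: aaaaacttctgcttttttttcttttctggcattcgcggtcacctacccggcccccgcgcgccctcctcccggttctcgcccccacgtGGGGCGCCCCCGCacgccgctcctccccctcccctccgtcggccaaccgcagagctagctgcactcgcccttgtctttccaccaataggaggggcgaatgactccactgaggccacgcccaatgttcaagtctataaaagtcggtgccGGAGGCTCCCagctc
In BTG2 the EGR matches lie from -172 to -164 and from -151 to -143 relative to the start, both on the plus strand. In PPM1D the match is near the start, from -23 to -15. In GADD45B the first capitals join an NF-kB match that reads the same on both strands, from -163 to -154, to an EGR match on the minus strand that overlaps it, from -159 to -151, and the second run is another NF-kB match, from -15 to -6. A match is a description of the letters and not evidence of binding. The 3 genes with an EGR match included BTG2, which was called higher, and PPM1D and GADD45B, which were not called. EGR1 itself was at 71.1, 68.9 and 71.8 CPM in the controls and 30.3, 25.3 and 29.3 CPM after knockdown, a log2 fold change of -1.32 ± 0.068 (edgeR adjusted p = 1.7e-13).

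All values here are RNA levels, and protein amount or activity was not measured by them. Of a list of 34 genes around the control of p53, MDM2 and MDM4, 33 were tested, 4 were called higher (12.1%, beside 11.8% of all genes) and 2 lower (6.06%, beside 11.3%), with a median log2 fold change of -0.017. Those called higher were USP2 (0.68 ± 0.093), a deubiquitinase that stabilizes MDM2 and MDM4, the p53 kinases DYRK2 (0.45 ± 0.058) and HIPK2 (0.35 ± 0.058), and TP53BP1 (0.31 ± 0.046). Those called lower were the checkpoint kinase gene CHEK1 (-0.33 ± 0.060) and MTBP (-0.27 ± 0.061), which encodes a protein that binds MDM2.

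The 5 genes called among the 9 stood beside other p53 targets that moved in both directions. Over 86 other targets in 5 groups by role, 74 were tested, 12 were called higher (16.2%, beside 11.8% of all genes) and 16 lower (21.6%, beside 11.3%), with a median log2 fold change of -0.00055 beside 0.24 for the 9 genes and 0.018 for all genes. Without scrambled shRNA replicate 2 the number called higher was 7 of 74 (9.46%), beside 9.74% of all genes in that fit. Among the targets of cell cycle arrest, 0 of 7 tested were called higher and 2 lower, and these counts by role are small and are to be read beside the 11.8% and 11.3% of all genes. CDKN1A, which encodes the cyclin-dependent kinase inhibitor p21, was at 61.5, 61.7 and 65.7 CPM in the controls and 53.3, 44.4 and 44.6 CPM after knockdown, a log2 fold change of -0.41 ± 0.068 (edgeR adjusted p = 3.4e-05). CDKN1A was thus lower in the samples in which GADD45A was lower and BTG2 and TP53INP1 were higher. PLK2 was also called lower at -0.55 ± 0.049, and CCNG1 at 0.15 ± 0.053 was not called.

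The small counts of the other 4 roles likewise stand beside 11.8% of all genes called higher and 11.3% called lower. Of the 15 cell death targets tested 1 was called higher, STEAP3 at 0.34 ± 0.095. In this group 3 were called lower, led by PERP at -1.11 ± 0.092 and PMAIP1 at -0.50 ± 0.065. BAX at -0.16 ± 0.056 and BBC3 at 0.0091 ± 0.13 were not called, and FAS had 2 to 5 counts per sample. DNA repair targets had 0 called higher and 3 lower of 6, namely RRM2B at -0.79 ± 0.081, DDB2 at -0.35 ± 0.11 and POLH at -0.30 ± 0.088. Metabolic targets had 6 called higher and 0 lower of 16, led by DDIT4 at 0.48 ± 0.057, an inhibitor of mTORC1 like SESN1, and PANK1 at 0.44 ± 0.079, while TIGAR at -0.0033 ± 0.21 was not called. Targets in signaling and secretion had 5 called higher and 8 lower of 30, with CYFIP2 at 0.71 ± 0.20 and ORAI3 at 0.67 ± 0.13 the highest, and BLOC1S2 at -0.94 ± 0.072 and PGF at -0.89 ± 0.053 among those called lower.

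**Figure D4:**
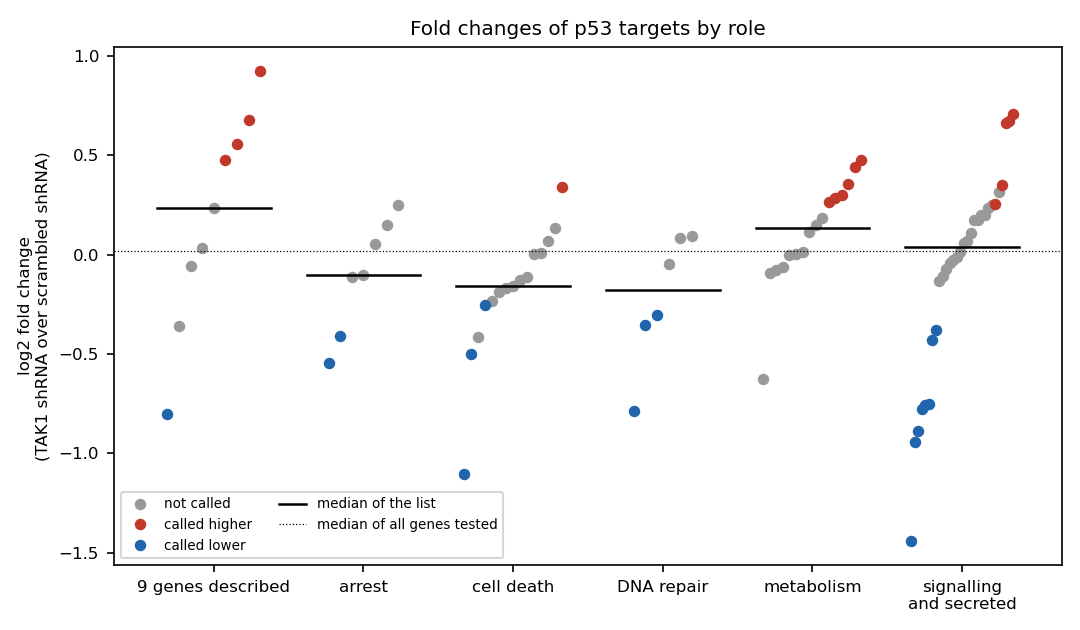
Log2 fold change (TAK1 shRNA over scrambled shRNA, vertical axis) of the 9 genes and of other p53 targets by role, with 1 point per gene, called genes in color, the median of each list as a bar and the median of all genes as a dotted line. The metabolic targets hold 6 genes called higher and 0 lower, and the repair targets 0 higher and 3 lower, beside 11.8% higher and 11.3% lower of all genes.

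GADD45A, GADD45B and GADD45G act through a small set of partners. Of 7 partners tested, beside the same shares of all genes, 1 was called higher, the JNK kinase gene MAP2K7 at 0.39 ± 0.052, and 2 were called lower, PCNA at -0.51 ± 0.053 and CDK1 at -0.43 ± 0.057, so PCNA and CDK1, which GADD45A binds, were lower in the same samples in which GADD45A was lower. MAP3K4, which GADD45 proteins activate, had a log2 fold change of -0.063 ± 0.062 and MAPK14, which encodes p38 alpha, one of 0.0071 ± 0.053, and neither was called.

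The genes whose levels followed MDM2 most closely over the 6 samples, of 9710 genes averaging 10 CPM or more, were SYNPO2, KATNAL2, COL14A1, EML1 and ATF7IP, with Pearson r between 0.996 and 0.997. The 6 points share 2 groups that differ in MDM2, so most of this likeness is the difference between the groups. The r of their deviations from the group means was between 0.859 and 0.908, and these genes were picked as the highest of many. Their log2 fold changes lay between 0.33 and 0.78, beside 0.47 for MDM2.

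**Figure D5:**
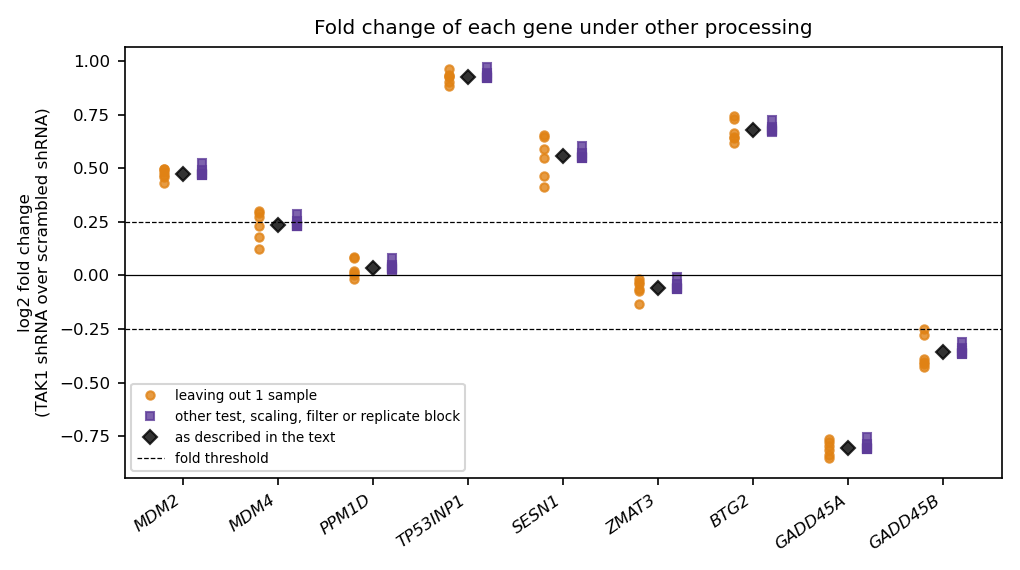
Log2 fold change of each of the 9 genes (vertical axis) as described, when 1 sample is left out, and under another test, scaling, filter or a replicate block, with the fold threshold of 0.25 in either direction as dashed lines. MDM4 straddles the threshold, from 0.13 to 0.30, and PPM1D lies on both sides of 0, while the 5 genes called lie on 1 side of the threshold under every setting shown.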

How the data were processed

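Per the labels, mRNA libraries of RD cells were sequenced, and the authors deposited raw counts of reads per gene, without normalization. The submitters' processing notes name CASAVA, STAR and GRCh38 (hg38). The counter, annotation release and use of strand are not given in the sources used here. Differential expression was computed from these counts with edgeR 4.0.16 in R 4.3.3 (default expression filter, TMM scaling, quasi-likelihood test, two-sided, with Benjamini-Hochberg adjustment over 15935 genes), and the standard error was obtained by dividing the size of the log2 fold change by the root of F. The call rule needs an adjusted p below 0.05 together with a log2 fold change of 0.25 or more in size. An exact permutation test of 3 against 3 cannot go below p = 0.1 and was not used. DESeq2 1.42.0, limma 3.58.1 (voom), other scalings, filters and fold thresholds, a replicate block and leaving out each sample were alternatives. The fits were tested on simulated data. Exon lengths and positions came from GENCODE 44 and promoter sequences from RefSeq (GRCh38.p14). The 9 members and the gene lists were chosen with earlier results of these data known. All 9 members are named. The rule allowed any relative, any gene of a list of at most 25 genes and up to 6 called in each direction from longer lists, and the text names only part of these, mainly genes that were called. Some items are not reported here. The common biological coefficient of variation was 5.67%, which counting error equals at 311 counts, so counting error is the larger for GADD45B and for the control samples of SESN1. Replicates of a group differed by more than sampling noise (chi-square per degree of freedom 2.87 to 8.67).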

Additional observations from a re-analysis of the deposited data

How the results depend on the processing

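MDM2, TP53INP1, SESN1, BTG2 and GADD45A kept their direction and their call under 14 alternative fits each (DESeq2, limma voom, 3 scalings, 2 filters, a replicate block and 6 fits without 1 sample). PPM1D, ZMAT3 and GADD45B were not called in any of theirs. MDM4 was called in 5 of 14, with upper-quartile scaling (0.25), with library size only (0.28) and in the 3 fits without 1 sample named above. In no fit did a called gene of the 9 change sign. With no fold threshold MDM4 is called too.

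A fold threshold of 0.5 left 1415 genes called of 3684, 3 other p53 targets higher and 9 lower, 3 relatives and 1 gene around the control of p53, since the threshold is stricter by construction. MDM2 then falls out of the 5 genes called. Leaving out 1 sample, other p53 targets called higher ranged from 7 (without scrambled shRNA replicate 2) to 12, and the cause was not tested. The other 90 of 96 counts compared stayed within 1.5 times. With library size only, 62.9% of the calls were higher, against 51.0% with TMM, and the median of all genes was 0.066 in place of 0.018.

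With the replicate block 3790 genes were called, and the same 5 of the 9. Deviations of same-numbered samples correlated at 0.037, 0.036 and 0.016, against -0.052 to 0.019 for samples of different numbers. Only scrambled shRNA replicate 3 correlated better with another number, at 0.019 with TAK1 shRNA replicate 2. All these correlations were small, and the numbers were not taken to pair the samples.

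Depth limits GADD45B most, at 106 to 172 counts, and genes such as FAS were not detectable at this depth beyond a few counts.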

Other observations

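Over all genes tested, 11.8% were called higher and 11.3% lower. Of 14 immediate early genes tested, 0 were called higher by edgeR and 5 lower, EGR1 at -1.32 ± 0.068, IER2 at -0.82 ± 0.065, KLF6 at -0.76 ± 0.074, FOS at -0.68 ± 0.20 and JUNB at -0.32 ± 0.071, with a median log2 fold change of -0.34. Of 10 NF-kB targets tested, 4 were called lower, led by CCL2 at -2.10 ± 0.11 and RELB at -0.78 ± 0.15, and 2 higher, TNFAIP2 at 0.36 ± 0.094 and BCL3 at 0.28 ± 0.086, with a median of -0.22. NFKBIA at 0.085 ± 0.10 and TNFAIP3 at -0.30 ± 0.19 were not called. GADD45B, itself known as a target of NF-kB, was at -0.36 ± 0.16 and was not called. Of 12 FOXO targets tested, PIK3IP1 at 2.06 ± 0.20 was called higher, and CCNG2 at -0.43 ± 0.059 and IRS2 at -0.44 ± 0.17 lower.

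Of the 6 muscle markers tested, MYOD1 at 0.37 ± 0.047, MYOG at 0.27 ± 0.050 and CHRNG at 0.47 ± 0.076 were called higher and CHRNA1 at -0.40 ± 0.039 lower, and their part in the values of the 9 genes was not tested.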
